A study of Mus musculus with 4 samples.

Results

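The uroplakins are the membrane proteins that tile the luminal face of the bladder. The 5 uroplakin genes Upk1a, Upk1b, Upk2, Upk3a and Upk3b were taken by gene symbol from a table of 23332 transcript clusters, each a pool of probes summarised to 1 value per array. Each of the 5 genes had 1 cluster, out of 14996 clusters with a single gene symbol. RNA came from epithelial colonies grown on 3T3 feeder cells, a mouse fibroblast line, from collagenase-digested bladders of C57BL/6j newborns. Colonies were picked from p63 knockout cultures (2 arrays) and from wild-type cultures (2 arrays), and the RNA was hybridised to Affymetrix Mouse Exon 1.0 ST arrays. Both groups shared the strain, the feeder layer and the culture procedure. The knockout allele, the sex of the pups and the number of mice behind each array are not stated in the labels, so the spread between arrays may be technical. The comparison asks how uroplakin transcripts fare when cultured urothelium lacks p63, a relative of p53 that regulates genes of basal epithelial cells.

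Uroplakins assemble in the endoplasmic reticulum and Golgi of superficial urothelial cells, called umbrella cells, and reach the surface in fusiform vesicles as rigid plaques that form part of the urine barrier. Upk1a and Upk1b encode tetraspanins, proteins with 4 passes through the membrane. Upk2, Upk3a and Upk3b encode partners that span the membrane once. Uroplakin Ia pairs with uroplakin II, and uroplakin Ib pairs with a uroplakin III, before the plaque forms. Upk3b is also known as a transcript of mesothelium, the lining of body cavities.

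Promoter sequence was available from RefSeq (build GRCm38.p6) for 3 of the 5 genes. It is shown because it sets genes that fell, Upk1a and Upk3a, beside one that did not pass the test, Upk3b. Each line gives the 250 bases before the annotated start, written 5′ to 3′ on the strand of the gene. The windows are chr7:30612735-30612984 on the minus strand for Upk1a, chr15:85016891-85017140 on the plus strand for Upk3a and chr5:136038246-136038495 on the plus strand for Upk3b. Capitals mark matches to CATG, the core letters of the site preferred by p53 family factors.
Upk1a: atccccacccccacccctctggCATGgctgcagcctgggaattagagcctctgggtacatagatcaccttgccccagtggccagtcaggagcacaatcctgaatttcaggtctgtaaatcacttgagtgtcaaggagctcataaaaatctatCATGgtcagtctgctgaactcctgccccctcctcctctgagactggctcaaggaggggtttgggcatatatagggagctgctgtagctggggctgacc
Upk3a: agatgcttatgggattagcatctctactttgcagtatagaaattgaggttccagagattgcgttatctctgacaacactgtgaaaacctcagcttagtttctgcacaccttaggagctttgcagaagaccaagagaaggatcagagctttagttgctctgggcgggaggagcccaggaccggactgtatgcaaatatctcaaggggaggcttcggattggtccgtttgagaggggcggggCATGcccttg
Upk3b: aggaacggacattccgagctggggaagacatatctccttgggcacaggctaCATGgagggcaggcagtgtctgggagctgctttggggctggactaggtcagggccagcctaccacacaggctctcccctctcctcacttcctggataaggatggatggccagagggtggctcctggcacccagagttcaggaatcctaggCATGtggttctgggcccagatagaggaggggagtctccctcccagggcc

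CATG had 2 matches before Upk1a, 1 before Upk3a and 2 before Upk3b. It occurred in 53.9% of 32817 promoter windows of the same length, searched on both strands as were the other motifs. GGGCGGG, a site of KLF and SP factors, had 2 matches before Upk3a, neither overlapping the capitals, and 0 before Upk1a and Upk3b, against 23.4% of windows with a match. GATAAG, which factors such as GATA3 bind, had 1 match before Upk3b and 0 before the other two, against 6.55% of windows. TATAAA (12.4% of windows), the FOXA site TGTTTAC (3.16%) and the GRHL site AACCNGTT (1.78%) had 0 matches in these windows. A match is a string of letters, and binding was not measured.

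The arrays had medians between 5.08 and 5.13 log2 units. Over all clusters the correlation was 0.98 between the wild-type arrays, 0.93 between the knockout arrays and 0.91 to 0.92 across groups. Trp63, which encodes p63, was at 4.60 and 4.74 in the knockout and 8.98 and 8.99 in the wild type, a 19.9-fold fall (limma adjusted p = 0.015). Of all clusters, 123 passed an adjusted p under 0.05, or 0.527%, with 90 lower (0.386%) and 33 higher (0.141%) in the knockout. The median log2 difference, knockout minus wild type, was 0.12 over all clusters as deposited and 0.0029 after quantile normalization. As a guide only, since it sets different probes side by side, the 95th percentile of 719 olfactory receptor clusters, taken as silent genes, was 5.08. That level was chosen with the data known.

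Transcripts of 4 of the 5 uroplakins fell in the knockout colonies and 0 rose. Folds ran from 10.5 for Upk2 through 16.9 for Upk3a and 83.5 for Upk1a to 229 for Upk1b, while Upk3b had a 2.07-fold lower mean and did not pass. The 4 calls among 5 members stand beside 0.386% of all clusters called lower. All 5 members were lower on both knockout arrays than on either wild-type array, a pattern found in 20.9% of all clusters. In these bulk samples, fewer cells of a type and less RNA per cell cannot be told apart.

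Upk1b, the tetraspanin of the uroplakin III branch, was at 4.95 and 3.68 log2 units in the knockout and at 12.08 and 12.24 in the wild type. The nearest knockout and wild-type values were 7.13 apart, while the knockout arrays differed from each other by 1.27 and the wild-type arrays by 0.16. The log2 difference was -7.84 ± 0.47 (SE, n = 2 per group; limma adjusted p = 0.032), with a 95% interval for the fold of 94.6 to 556. It ranked 1 among decreases over the 23332 clusters, and 2 without knockout replicate 2, where it was at -7.21 and Sptssb at -7.30. Knockout replicate 2 had the lower value, and the gap between the knockout arrays was wider than that of 92.6% of clusters.

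Upk1a, the tetraspanin that partners uroplakin II, was at 5.07 and 5.41 in the knockout and 11.51 and 11.73 in the wild type. The groups were 6.11 apart at their closest, against gaps of 0.34 and 0.22 within them. Its log2 difference was -6.38 ± 0.21 (SE; limma adjusted p = 0.015), a fold of 56.1 to 124 at 95%, and it ranked 3 among all decreases.

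Upk3a, the uroplakin III of the asymmetric unit membrane, as the plaque is called, was at 5.13 and 4.84 in the knockout and 8.86 and 9.26 in the wild type. The groups did not overlap, and their closest values were 3.73 apart. The log2 difference was -4.07 ± 0.23 (SE; limma adjusted p = 0.032), a fold of 10.9 to 26.1 at 95%, with rank 25 among decreases. Upk2, whose product matures by cleavage in the Golgi, was at 5.54 and 5.46 in the knockout and 8.70 and 9.09 in the wild type. The closest values were 3.16 apart, and the knockout arrays differed by only 0.07. Its log2 difference was -3.39 ± 0.21 (SE; limma adjusted p = 0.032), a fold of 7.06 to 15.6 at 95%, with rank 41. The knockout means of Upk1b (4.32) and Upk3a (4.99) lay below the guide for silent genes, 5.08. Those of Upk1a (5.24) and Upk2 (5.50) lay somewhat above it. At such low knockout levels the folds of the 4 genes are open to understatement.

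Upk3b, the uroplakin shared with mesothelium, was at 7.09 and 6.33 in the knockout and 7.86 and 7.66 in the wild type. The groups did not overlap, but the closest values were 0.56 apart and the knockout arrays differed by 0.76. The log2 difference was -1.05 ± 0.32 (SE; limma adjusted p = 0.18, unadjusted p = 0.027), with an interval of -1.91 to -0.19 before adjustment for multiple testing. It ranked 834 among decreases. Its interval did not overlap those of the other uroplakins, of which the nearest was that of Upk2, -3.97 to -2.82. Its knockout values were above the guide for silent genes on both arrays, as were those of Upk2, which lay lower (5.54 and 5.46).

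**Figure D1:**
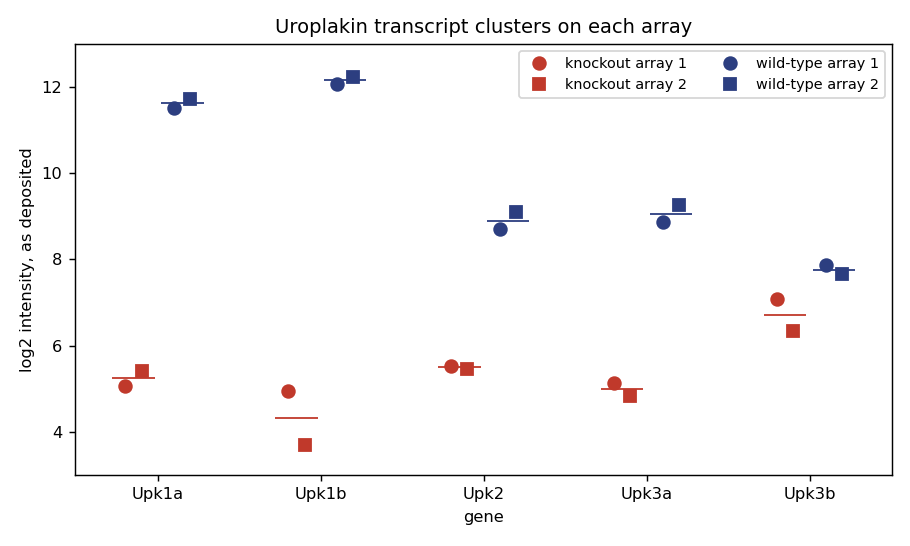
Log2 intensity of the 5 uroplakin clusters on each array, knockout in red and wild type in blue, with circles for replicate 1, squares for replicate 2 and a line at each group mean (n = 2). Upk1a, Upk1b, Upk2 and Upk3a lie between 3.68 and 5.54 on the knockout arrays and between 8.70 and 12.24 on the wild-type arrays, while the Upk3b groups are 0.56 apart.

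**Figure D2:**
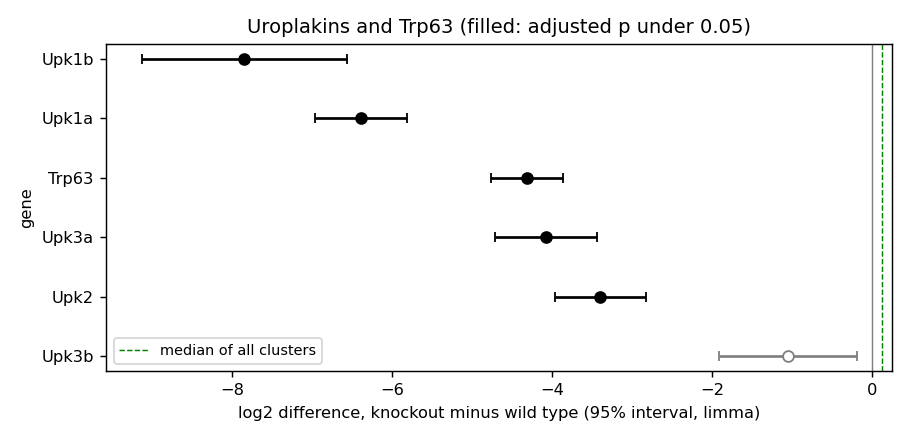
Log2 difference, knockout minus wild type, for the uroplakins and Trp63 with 95% intervals from limma, filled where the adjusted p was under 0.05. The dashed line is the median of all clusters (0.12), and only Upk3b is unfilled.

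**Figure D3:**
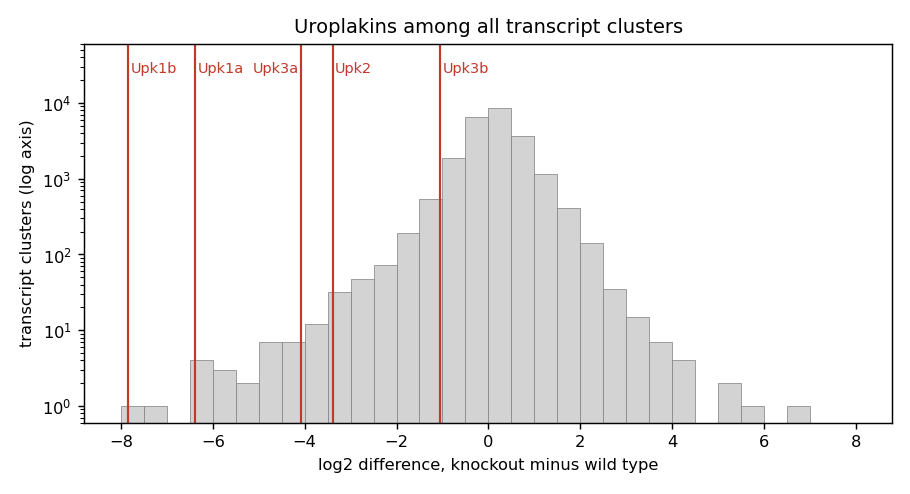
Number of transcript clusters (log axis) by log2 difference, knockout minus wild type, in bins 0.5 wide, with red lines at the 5 uroplakins. Upk1b and Upk1a lie in the far lower tail. Upk3b (-1.05, rank 834 among decreases over 23332 clusters) also lies in the lower tail, nearer to the bulk of clusters than the other uroplakins.

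The 2 arrays of a group did not rank alike for all uroplakins. In the knockout, Upk1b, Upk2, Upk3a and Upk3b were higher on replicate 1 and Upk1a on replicate 2. In the wild type, Upk1a, Upk1b, Upk2 and Upk3a were higher on replicate 2 and Upk3b on replicate 1. The wild-type gaps for Upk2 and Upk3a, 0.40 each, were above the median gap of 0.18 over all clusters. The knockout gaps of Upk2 (0.07) and Upk3a (0.29) were below the median knockout gap of 0.31.

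Within-array log2 differences were taken for 4 pairs of uroplakins. Mean knockout levels were below the guide for silent genes for Upk1b and Upk3a and somewhat above it for Upk1a and Upk2. At such low levels, shifts between these 4 also follow the wild-type levels of their probe sets. No order of the true falls is read from them. Upk1a minus Upk2, the genes of one partner pair, was -0.47 and -0.06 in the knockout and 2.82 and 2.64 in the wild type. The mean shift, knockout minus wild type, was -2.99. For the other pair, Upk1b minus Upk3a was -0.18 and -1.15 in the knockout and 3.22 and 2.98 in the wild type, a shift of -3.77.

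Between the 2 tetraspanins, Upk1a minus Upk1b was 0.11 and 1.72 in the knockout and -0.57 and -0.51 in the wild type, a mean shift of 1.46. The shift came to 0.66 when knockout replicate 2 was left out and to 2.26 when knockout replicate 1 was, so its size rests on which knockout array is used. Upk3a minus Upk3b was -1.96 and -1.49 in the knockout and 1.00 and 1.60 in the wild type, a shift of -3.03. The groups did not overlap for any of the 4 pairs compared. The exact permutation test, two-sided, gave p = 0.33 for each (adjusted p = 0.33), the smallest that 2 against 2 arrays allow.

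**Figure D4:**
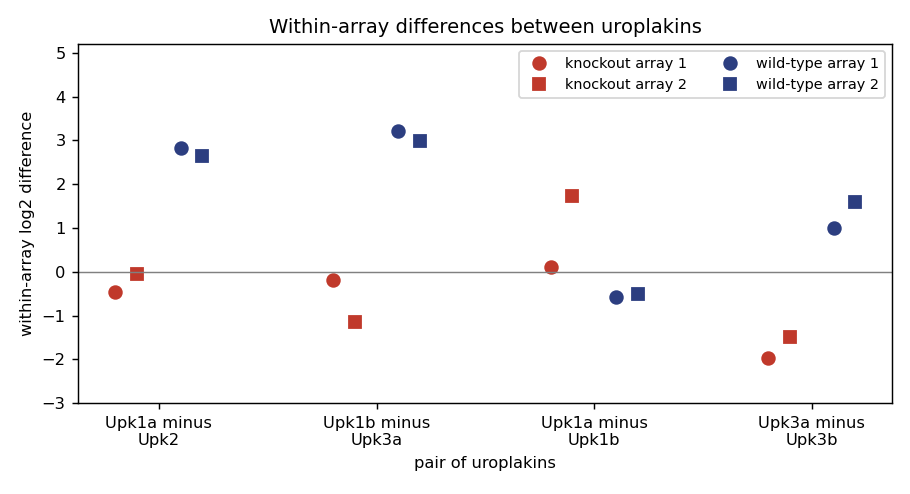
Within-array log2 difference between the members of 4 uroplakin pairs on each array, knockout in red and wild type in blue, with circles for replicate 1 and squares for replicate 2. The knockout arrays lie below the wild-type arrays for Upk1a minus Upk2, Upk1b minus Upk3a and Upk3a minus Upk3b, and above them for Upk1a minus Upk1b.

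Other transcripts with similar patterns were sought by the root mean square difference between gene-centred log2 values over the 4 arrays. This measure mostly follows the size of the change. Uroplakins and Y-linked clusters were left out of the search. Nearest to Upk1a were the keratin gene Krt23 (0.19) and Adh1 (0.19), which encodes an alcohol dehydrogenase. Nearest to Upk1b were Sptssb (0.37), a small subunit of serine palmitoyltransferase, and the basal keratin gene Krt15 (0.81). Upk2 was closest to Rnf144b (0.04), a ubiquitin ligase gene, and Adgrf4 (0.05), an adhesion G protein-coupled receptor gene. Upk3a was closest to the basal keratin gene Krt14 (0.06) and to Fa2h (0.07), a fatty acid hydroxylase. Upk3b was closest to Cyp27a1 (0.06), a sterol hydroxylase, and Nxt2 (0.06), a nuclear export cofactor, neither of which passed the test (adjusted p = 0.18 for both).

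Among 14995 other clusters with a single symbol, Upk2 had rank 15 from Upk3a, and Upk3a rank 29 from Upk2. Upk1a had rank 4 from Upk1b, and Upk1b rank 14 from Upk1a. Partners were not nearest to each other among the uroplakins by root mean square difference, which mostly follows the size of the change. At the low knockout levels of Upk1a, Upk1b, Upk2 and Upk3a, that size also follows the wild-type levels of their probe sets. No result about partner pairs is read from the ranks. Upk2 had rank 32 from Upk1a and Upk1a rank 2091 from Upk2, while Upk3a had rank 23 from Upk1b and Upk1b rank 3208 from Upk3a.

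Genes of the vesicle traffic of uroplakins, toward the surface or toward lysosomes, were examined next. Of 10 measured vesicle traffic genes, 2 fell, 0 rose and 8 did not pass, where 0.386% of all clusters were called lower. The list's median log2 difference was -1.40 against 0.12 over all clusters. Snx31, a sorting nexin that takes uroplakins toward lysosomes, fell 23.9-fold, from 9.36 and 9.54 to 4.87 and 4.89 (limma adjusted p = 0.015). Sytl2, a synaptotagmin-like effector of RAB27, fell 7.34-fold, from 7.24 and 7.21 to 4.49 and 4.21 (limma adjusted p = 0.032). Mal, a raft protein needed for uroplakin vesicles to join the apical membrane, and Rab27b, a small GTPase of fusiform vesicles, are named with their values known. Mal was at 9.03 and 8.87 against 10.35 and 10.45 (limma adjusted p = 0.066; 0.041 when the dimmest clusters, those under the 25th percentile of mean level, were left out). Rab27b was at 5.48 and 4.14 against 7.19 and 7.51 (limma adjusted p = 0.11). Of the 10 traffic genes, 7 were lower and 1, Rab8a (0.34), was higher without overlap, where 20.9% of all clusters were lower and 8439 higher. The groups overlapped for Rab11a (-0.21) and Vps33a (-0.13). Rab8a, Rab11a and Vps33a were also named with their values known.

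Of 10 measured genes of superficial and intermediate urothelium besides uroplakins, 5 fell, 0 rose and 5 did not pass, with a median of -2.98. Over all clusters, 0.386% were called lower. Slc14a1, the urea transporter UT-B, fell 25.6-fold, from 8.83 and 9.08 to 4.26 and 4.29. Ivl, an envelope precursor, fell 19.6-fold, Grhl3, a transcription factor of terminal differentiation, 8.79-fold, Krt13, an intermediate cell keratin, 8.26-fold and the claudin gene Cldn8 7.86-fold (limma adjusted p between 0.015 and 0.032 for all 5). Without overlap, 9 of the 10 were lower and 1, Krt20, higher, where 20.9% of all clusters were lower and 8439 higher. All 10 had an unadjusted p under 0.05 in the limma test, as did 22.3% of all clusters. Krt20, an umbrella cell keratin named with its values known, was at 9.64 and 8.72 in the knockout against 7.04 and 7.13, a higher mean that did not pass (limma adjusted p = 0.096). The other uncalled members, also named with their values known, were lower: Krt4 (-2.99), Psca (-2.54), Cldn4 (-0.93) and Krt18 (-0.63). Psca passed without the dimmest clusters (limma adjusted p = 0.029) and with an intensity trend (limma adjusted p = 0.0325).

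Of 11 transcription factors linked to urothelial differentiation, 2 fell (Foxa1 and Grhl3), 0 rose and 9 missed the threshold, with a median of -0.69. Over all clusters, 0.386% were called lower. Foxa1, a pioneer factor, was at 4.48 and 4.39 against 6.79 and 6.80 (5.12-fold, limma adjusted p = 0.034). Gata3 and Pparg, regulators of urothelial differentiation named with their values known, did not pass. Gata3 was at 5.04 and 4.16 against 7.74 and 7.75 (limma adjusted p = 0.063), and Pparg at 5.44 and 6.34 against 8.63 and 8.64 (limma adjusted p = 0.072). Without the dimmest clusters their adjusted p-values were 0.038 and 0.046. Of the 11 factors, 6 were lower and 1, Klf4 (0.61), was higher without overlap, where 20.9% of all clusters were lower and 8439 higher. The groups overlapped for Ehf (-0.84), Ovol1 (-0.025), Rarg (-0.02) and Elf3 (0.06). Klf4 and the overlapping factors were also named with their values known.

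The tetraspanin family was compared because Upk1a and Upk1b belong to it. Of 26 other measured tetraspanins, 1 fell, 0 rose and 25 did not pass, where 0.386% of all clusters were called lower. The list's median was -0.21. Tspan13 was at 5.22 and 5.38 in the knockout and 8.59 and 8.63 in the wild type, a 9.91-fold fall (limma adjusted p = 0.030). The differences of the rest ran from -2.18 to 1.86 on the log2 scale. Without overlap, 11 of the 26 were lower and 5 higher. Over all 23332 clusters, 4885 (20.9%) were lower and 8439 higher without overlap. Cd9 and Cd81, widely expressed members named with their values known, differed by 0.08 and 0.71.

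Since Upk3b is also a mesothelial transcript, 8 measured mesothelial genes were examined. None passed the limma test at an adjusted p under 0.05 (3 had an unadjusted p under 0.05, as did 22.3% of all clusters), and the list's median was 0.26. Msln, mesothelin, was at 8.41 and 8.32 in the knockout and 6.57 and 6.47 in the wild type (limma adjusted p = 0.051; 0.027 without the dimmest clusters and 0.028 with an intensity trend). Aldh1a2, a retinaldehyde dehydrogenase, was at 4.73 and 4.73 against 8.30 and 7.13 (limma adjusted p = 0.082). Wt1 was at 5.54 and 5.53 against 4.95 and 4.92 (limma adjusted p = 0.16). The share of mesothelial RNA in the Upk3b signal was not tested.

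The uroplakin genes lie on 5 chromosomes, and Upk1b shares chromosome 16 with Trp63. None of the 30 genes nearest to the uroplakin genes, 3 measured genes on each side, passed the limma test at an adjusted p under 0.05. Of the 30, 2 had an unadjusted p under 0.05, as did 22.3% of all clusters. Their median log2 difference was -0.02 and their range -0.60 to 0.61. Beside Upk1b, the largest differences were those of Arhgap31 (-0.60) and Lsamp (0.52). Beside the other uroplakins they were Cxcr5 (0.61) near Upk2, Pmis2 (0.46) near Upk1a, Zp3 (0.44) near Upk3b and Arhgap8 (0.42) near Upk3a.

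**Figure D5:**
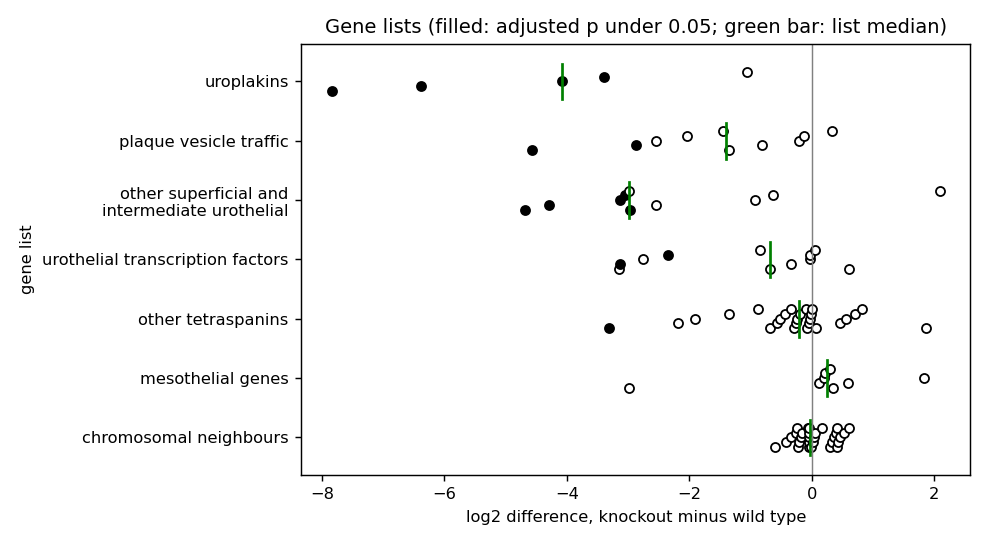
Log2 difference, knockout minus wild type, of each measured gene in 7 lists, filled where the adjusted p was under 0.05, with a green bar at the list median. The uroplakin median is -4.07, the vesicle traffic median -1.40, and all 30 chromosomal neighbours lie between -0.60 and 0.61.

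Epithelial markers were measured in both groups. None of 8 general epithelial markers passed the limma test (6 had an unadjusted p under 0.05, as did 22.3% of all clusters). Their median level was 8.36 and 8.32 on the knockout arrays and 8.52 and 8.50 on the wild-type arrays. The list's median log2 difference was -0.65, and 6 of the 8 were lower without overlap, Krt19 (-1.38), Esrp1 (-1.19) and Cdh1 (-1.11) by the most. Over all 23332 clusters, 20.9% were lower and 8439 were higher without overlap. Esrp1 passed without the dimmest clusters (limma adjusted p = 0.048) and with an intensity trend (limma adjusted p = 0.048). Epcam and Cldn7, named with their values known, were higher without overlap, Epcam at 8.92 and 8.77 against 8.55 and 8.56. Of 10 basal markers, Trp63 among them, 7 fell with the uroplakins, where 0.386% of all clusters were called lower. All 10 were lower without overlap and had an unadjusted p under 0.05 in the limma test. The median level of the 10 was 5.14 and 4.83 against 8.46 and 8.65.

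Markers of other cells gave 0 limma calls among 11 fibroblast, 7 endothelial, 7 smooth muscle and 8 leukocyte genes (3, 4, 1 and 3 at an unadjusted p under 0.05). Over all clusters, 0.527% were called and 22.3% had an unadjusted p under 0.05. Median levels on the knockout and then the wild-type arrays were 7.06, 7.71, 7.71 and 7.23 for fibroblast genes, led by Sparc and Dcn. They were 4.17, 4.24, 5.72 and 5.26 for endothelial genes, led by Egfl7 and Pecam1. Of the 7 endothelial genes, 5 were lower and 1 higher in the knockout without overlap, where 20.9% of all clusters were lower. The largest endothelial log2 differences were those of Emcn (-2.49), Pecam1 (-1.84) and Cdh5 (-1.56), while that of Egfl7 was -0.17. Smooth muscle genes, led by Acta2 and Smtn, were at 5.93, 5.69, 5.58 and 4.69, and leukocyte genes, led by Cd68 and Laptm5, at 4.13, 4.07, 4.45 and 4.18. Of the 11 fibroblast genes, 3 were lower without overlap, Lum (-2.33), Dcn (-1.45) and Col3a1 (-0.63), and 1, Vim (0.93), was higher. Col3a1 and Vim were named with their values known. Of the 7 smooth muscle genes, 0 were lower and 4 higher without overlap, Acta2 (1.24) and Cnn1 (1.19) by the most. Over all 23332 clusters, 8439 were higher without overlap. The part of these other cells in the uroplakin results was not tested.

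Leaving out any 1 of the 4 arrays ended the 4 uroplakin calls (limma adjusted p between 0.075 and 0.34, with 1 array then standing alone in its group). The 4 log2 differences kept their direction in each of these fits, with unadjusted p at most 0.00072, and Upk3b ran from -1.43 without knockout replicate 1 to -0.67 without knockout replicate 2.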

How the data were processed

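Expression was measured in 4 samples on Affymetrix Mouse Exon 1.0 ST arrays. The deposited values are log2 intensities, 1 per transcript cluster and array; the scale was read from the values. The submitters' processing notes name Affymetrix Expression Console, Partek and build mm9; summarisation and between-array normalization: not given in the sources used here. Detection flags were not used here.

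Symbols came from GEO's platform annotation; 1019 clusters with several symbols and 7317 with none were tested but not named. The groups entered 1 linear model in limma 3.58.1, run in R 4.3.3 (lmFit, eBayes, two-sided, no covariates, no filter) over all 23332 clusters with Benjamini-Hochberg adjustment at 0.05; the fit had 2 residual and 2.2 prior degrees of freedom and was tested on simulated data. Folds are log2 differences on the linear scale. The number of arrays limits the precision. Alternatives were quantile and cyclic loess normalization, a filter at the 25th percentile, an intensity trend, robust eBayes, a replicate block and leaving out arrays.

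Named genes were the uroplakins, Trp63 and up to 6 called members of each list (up to 3 where none passed). Also named were the 2 most similar genes of each uroplakin, with uroplakins and Y-linked genes left out of the search. Up to 2 chromosomal neighbours of each uroplakin were named, as were the 2 most abundant markers of other cell types. Other genes are marked as named with their values known. Members, lists and rules were chosen with earlier results of these data known. Entrez identifiers of 14805 genes matched RefSeq (GRCm38.p6), used for gene order and promoters; array coordinates are not printed because the builds differ.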

Additional observations from a re-analysis of the deposited data

How the results depend on the processing

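In 5 alternatives that used all 4 arrays without a block, Upk1a, Upk1b, Upk2 and Upk3a stayed called (largest adjusted p 0.016, 0.034, 0.034 and 0.033) and Upk3b stayed uncalled (adjusted p between 0.16 and 0.24). Quantile normalization gave log2 differences of -6.46, -8.05, -3.41, -4.11 and -1.03 for Upk1a, Upk1b, Upk2, Upk3a and Upk3b. Without clusters below the 25th percentile, calls were 362 over all clusters, 4 in vesicle traffic, 4 in transcription factors, 3 in other tetraspanins and 1 in mesothelial genes, with fewer clusters tested. With an intensity trend they were 303, 4, 3, 3 and 1.

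Replicate numbers are shared by the groups, but deviations of same-numbered arrays correlated at 0.019 and nothing in the labels pairs them. With the replicate block, which leaves 1 residual degree of freedom fewer, the differences for Upk1a, Upk1b, Upk2 and Upk3a remained -6.38, -7.84, -3.39 and -4.07, but adjusted p rose to 0.12, 0.14, 0.14 and 0.14. Calls were then 0 for the uroplakins (5 at an unadjusted p under 0.05), 0 over all clusters (4525 at that level) and 0 in each list.

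Leaving out 1 array in turn gave -6.55 to -6.21 for Upk1a, -8.48 to -7.21 for Upk1b, -3.59 to -3.20 for Upk2, -4.27 to -3.88 for Upk3a and -1.43 to -0.67 for Upk3b. Uroplakin, list and overall calls were 0 in all 4 fits, while 2124 to 6570 clusters had an unadjusted p under 0.05. Within-array shifts ran from -3.20 to -2.79 for Upk1a minus Upk2, -4.25 to -3.28 for Upk1b minus Upk3a, 0.66 to 2.26 for Upk1a minus Upk1b and -3.33 to -2.73 for Upk3a minus Upk3b. Averaging several clusters of a gene was not run because each uroplakin had 1 cluster. The files carry no background flags, so the lowest levels cannot be told from background.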

Other observations

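Among the tetraspanins, Cd53 and Tspan12 had the next largest decreases after Tspan13 and were named with their values known. Cd53, a tetraspanin of leukocytes, was at 5.97 and 6.40 in the knockout and 8.21 and 8.51 in the wild type (limma adjusted p = 0.063; 0.038 without the dimmest quartile of clusters and 0.043 with an intensity trend). Of 8 leukocyte markers, 2 were lower and 4 higher in the knockout without overlap, and 0 passed (3 at an unadjusted p under 0.05). Over all 23332 clusters, 4885 (20.9%) were lower and 8439 higher without overlap, and 22.3% had an unadjusted p under 0.05. The 2 lower markers were Cd79a, at 3.32 and 2.65 against 5.01 and 4.22, and Tyrobp, at 4.31 and 3.75 against 4.86 and 4.56. Among the 4 higher, Ptprc was at 3.64 and 3.73 against 3.27 and 3.15. Cd68, Laptm5 and Itgam were also higher, with log2 differences of 0.89, 0.47 and 0.34. All of these leukocyte markers were named with their values known. Tspan12, which acts with a Frizzled receptor in vessels, was at 5.47 and 5.74 against 7.48 and 7.56 (limma adjusted p = 0.055; 0.031 and 0.038 under the same settings). Tspan1 and Tspan8 were also named with their values known. Tspan1 was at 5.86 and 4.85 against 3.67 and 3.31 (limma adjusted p = 0.12), the largest increase of the family here. Tspan8, at 10.21, 8.57, 10.18 and 10.33 on knockout arrays 1 and 2 and wild-type arrays 1 and 2, was low on knockout array 2 alone.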
